A study of Homo sapiens with 6 samples.

Results

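The EYA, DACH and SIX-family genes encode transcription factors and cofactors of the retinal determination network, first known from the fly genes eyes absent, sine oculis and dachshund. SIX-family proteins bind DNA through a homeodomain and recruit EYA proteins, which have no DNA-binding domain of their own and which combine a transactivation domain with a phosphatase domain. DACH proteins are nuclear factors related to the SKI corepressors and can oppose or assist EYA and SIX-family proteins at shared targets. The network acts with PAX factors in the embryonic eye, ear, kidney and skeletal muscle. The 9 genes described here, EYA1 to EYA4, SIX2, SIX3, SIX4, DACH1 and DACH2, were chosen by gene symbol from 14884 named genes, with earlier results of these data known. The selection rule took the cluster with the highest mean over all arrays, but each of the 9 genes had only 1 named transcript cluster, so no measured value decided between clusters. All 9 were measured, and no filter on low values was applied.

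D283 is an established human cell line derived from a medulloblastoma, a malignant tumour of the cerebellum, and it was cultured here as floating tumorspheres with EGF and bFGF. In the OTX2 KD group (n = 3 arrays) the cells received siRNA s9931 against OTX2, a homeodomain factor of the early brain that many Group 3 and Group 4 medulloblastomas express highly. The scramble group (n = 3 arrays) received a siRNA that silences no gene. The model is 1 cell line with 1 siRNA sequence on these arrays, so effects of the siRNA on other transcripts and effects of OTX2 loss cannot be told apart. In bulk RNA, a change in the number of cells of a type cannot be told apart from a change in RNA per cell.

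Each array gave an RMA value, on a log2 scale, for 53617 transcript clusters, and array medians lay between 3.67 and 3.71 in OTX2 KD and between 3.597 and 3.615 in scramble. OTX2 itself was 9.62, 9.57 and 9.57 in the OTX2 KD arrays and 10.56, 10.56 and 10.55 in the scramble arrays, a log2 fold change of -0.97 ± 0.073 (SE). Of 11 measured markers of Group 3 and Group 4 tumours, 9 lay above the median of all 6 arrays, whereas EOMES lay below it on 5 arrays. Of these 11 markers 2 were higher, 6 were lower and 3 did not pass, with a median log2 fold change of -0.78. OTX2, the target of the siRNA, is 1 of the 6 that were lower and enters this median. Of all named genes in the same fit, 16.6% were higher and 23.2% were lower. The 2 that rose were UNC5D and BARHL1, with log2 fold changes of 3.02 and 0.93, and UNC5D had the largest change of the list. CRX, NPR3, IMPG2 and MYC fell, with log2 fold changes of -2.11, -2.12, -1.90 and -1.46. All 5 measured neuronal markers rose, and their mean log2 level per array was 8.54 to 8.65 in OTX2 KD and 5.98 to 6.12 in scramble. All 3 measured skeletal muscle markers fell, with a mean level of 6.13 to 6.44 in OTX2 KD and 7.80 to 8.01 in scramble. Of 3 astrocyte and 4 endothelial markers, 0 passed in limma and 0 had an unadjusted p below 0.05, and 2 of 3 and 3 of 4 lay below the median of every array. Markers of other cell types included some that rose, namely 2 of 4 for oligodendrocytes (OLIG2 at 0.78 and OLIG1 at 0.53), 1 of 3 for fibroblasts and mesenchyme (FN1 at 1.16) and 1 of 2 for leukocytes (CD68 at 1.13), and the others of these lists did not pass. The part of these marker shifts in the results below was not tested.

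The DNA around the start sites of SIX4, SIX2 and DACH1 is shown because SIX4 had the largest fall of the 9 genes, SIX2 fell with it, and DACH1 rose. Each sequence runs 5′ to 3′ on the gene's strand from 250 bases before to 50 bases after a RefSeq start site (GRCh38.p14), and capitals mark TAAT or its reverse complement ATTA, the core letters bound by many homeodomain proteins. The SIX4 window is on chr14:60724302-60724601 (minus strand), the SIX2 window on chr2:45009403-45009702 (minus strand) and the DACH1 window on chr13:71867155-71867454 (minus strand).
SIX4: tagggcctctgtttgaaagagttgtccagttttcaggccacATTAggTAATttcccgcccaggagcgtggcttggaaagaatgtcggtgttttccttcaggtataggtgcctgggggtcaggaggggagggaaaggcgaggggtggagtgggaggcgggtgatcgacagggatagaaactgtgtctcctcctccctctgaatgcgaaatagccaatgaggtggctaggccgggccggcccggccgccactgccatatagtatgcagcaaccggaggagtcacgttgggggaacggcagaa
SIX2: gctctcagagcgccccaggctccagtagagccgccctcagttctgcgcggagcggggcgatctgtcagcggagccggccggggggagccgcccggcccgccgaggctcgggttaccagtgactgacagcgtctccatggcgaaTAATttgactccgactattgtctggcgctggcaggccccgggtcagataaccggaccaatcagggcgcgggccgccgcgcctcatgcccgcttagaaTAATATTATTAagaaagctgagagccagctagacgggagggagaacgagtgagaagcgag
DACH1: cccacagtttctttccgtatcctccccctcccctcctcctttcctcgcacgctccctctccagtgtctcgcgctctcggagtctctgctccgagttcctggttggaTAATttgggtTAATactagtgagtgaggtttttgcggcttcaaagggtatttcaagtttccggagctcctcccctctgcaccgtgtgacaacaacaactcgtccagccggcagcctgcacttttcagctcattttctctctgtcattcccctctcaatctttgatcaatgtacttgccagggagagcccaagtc
SIX4 held 1 TAAT and 1 ATTA, SIX2 held 2 of each, of which the 2 ATTA share a base and directly follow a TAAT, and DACH1 held 2 TAAT and 0 ATTA. The motif count took in 7 windows for 6 of the genes (EYA3, EYA4, SIX2, SIX4, DACH1 and 2 starts of DACH2). No window of EYA1, which had the largest change of the 9 genes, of EYA2 or of SIX3 was counted. Of the 7 windows, 4 held TAAT or ATTA, as did 50.2% of all 35116 windows. All 3 windows shown are among these 4. The windows of EYA3, of EYA4, which fell, and of 1 start of DACH2, which rose, held neither. The longer motifs TAATCC and TAATCT, which the study names as OTX2 motifs, were searched on both strands and were in 0 of the 7 windows, against 6.36% and 7.17% of all windows. A match here is a description of the letters and not of binding, and these windows cover only 300 bases at each start.

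After OTX2 knockdown the 9 genes did not all change in 1 direction, and they were not tested as a group. EYA1 rose 4.45-fold, SIX4 was 2.89-fold lower, SIX2, SIX3, EYA2 and EYA4 fell by smaller amounts, and both DACH genes rose slightly. At an adjusted p below 0.05 over all clusters (limma with Benjamini-Hochberg adjustment), 3 of the 9 genes were higher, 5 were lower, and EYA3 did not pass. In the same fit 27.9% of all clusters and 39.8% of named genes passed. Upward calls were 14.8% of clusters and 16.6% of named genes, and downward calls 13.1% of clusters and 23.2% of named genes. With a limit of at least 2-fold added, EYA1 and SIX4 remained of the 9 genes, where 6.74% of clusters and 10.7% of named genes passed. The 3 arrays of each group did not overlap for 8 of the 9 genes, against 42.0% of clusters and 55.5% of named genes. The median log2 fold change was -0.37 over the 9 genes and 0.00 over named genes, and no gene of the 9 changed direction under any alternative tried. Only median centring, repeated quantile normalization and leaving out arrays could change a direction, because the other alternatives left the fold changes of the 9 genes as they were. Over all clusters, 7932 were higher and 7034 lower, and median centring of the arrays, which removes the difference between the array medians of the groups, gave 6027 higher and 8611 lower.

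**Figure D1:**
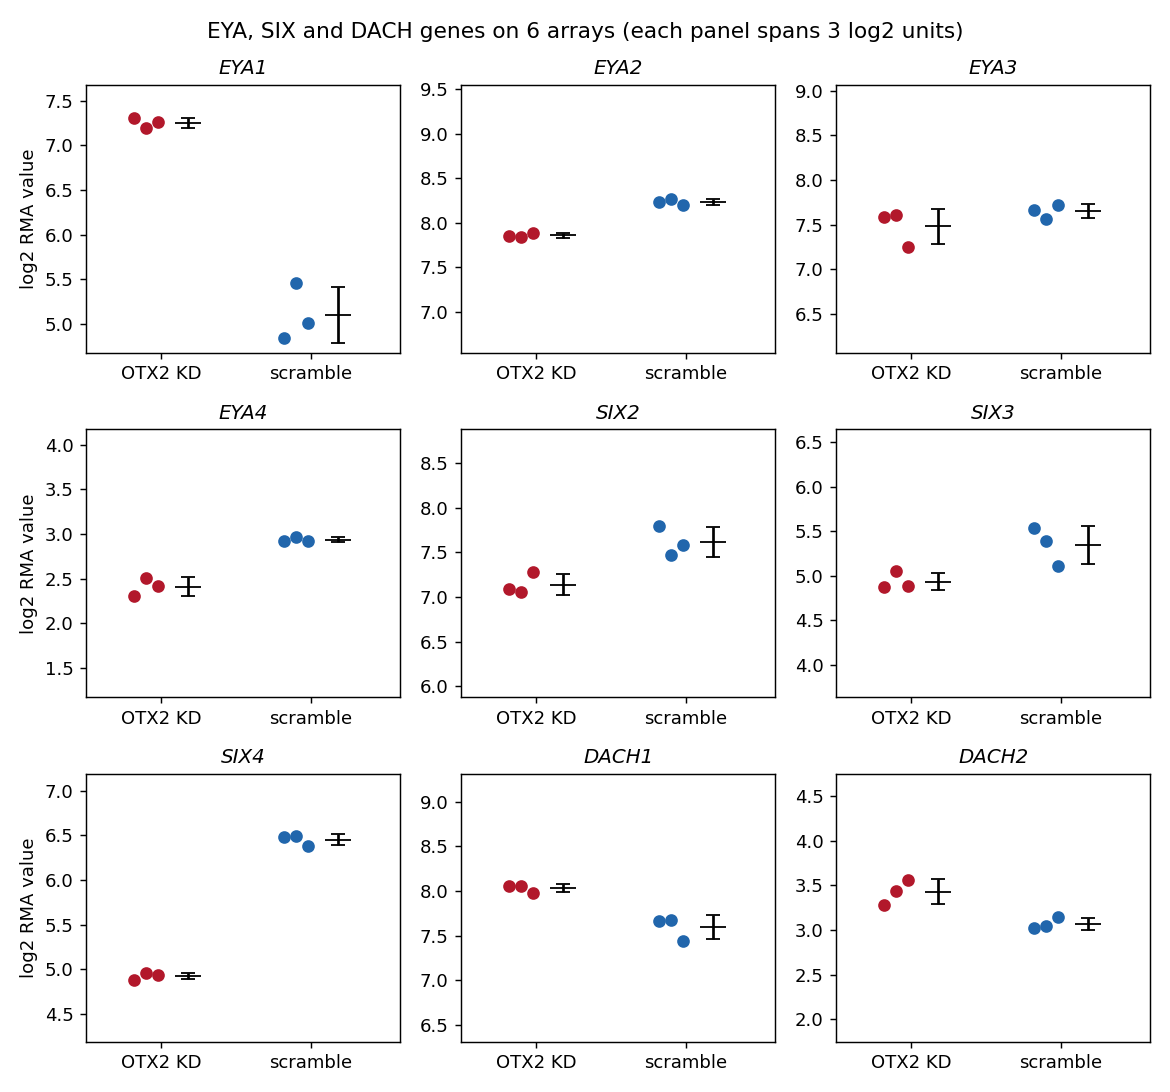
Log2 RMA value (y axis) of each gene on the 3 OTX2 KD arrays (red) and the 3 scramble arrays (blue), with the group mean and SD in black beside the points, every panel spanning the same number of log2 units. EYA1 stands between 7.20 and 7.31 in OTX2 KD, above all scramble arrays, and SIX4 between 4.88 and 4.95, below all scramble arrays.

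EYA1 (transcript cluster 17078134, chromosome 8) is a cofactor whose mutation causes branchio-oto-renal syndrome, a disorder of ear and kidney development. Its values were 7.31, 7.20 and 7.26 in the OTX2 KD arrays, against 4.84, 5.45 and 5.005 in the scramble arrays. The groups were far apart, and the knockdown arrays lay closer together (SD 0.056) than the control arrays (SD 0.318), of which scramble replicate 2 was the highest. The log2 fold change was 2.15 ± 0.157 (SE), a 4.45-fold rise with a 95% confidence interval of 1.79 to 2.52 on the log2 scale (adjusted p = 7.34e-05). Of all clusters, 0.942% had a larger change in either direction, and EYA1 ranked 99 among the rises of named genes. Without scramble replicate 2 the log2 fold change was 2.33, and without any other array it lay between 2.02 and 2.18.

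The other EYA genes did not follow EYA1. EYA2 (cluster 16914478, chromosome 20), an EYA paralogue that is also expressed in muscle and several cancers, was 7.85, 7.84 and 7.89 in OTX2 KD and 8.23, 8.26 and 8.20 in scramble. Replicates of each group lay close together, and every OTX2 KD array was lower than every scramble array. Its level was 1.29-fold lower, a log2 fold change of -0.37 ± 0.074 (SE, adjusted p = 0.00853). EYA4 (cluster 17012721, chromosome 6), mutated in an inherited form of hearing loss, was 2.30, 2.51 and 2.42 in OTX2 KD and 2.92, 2.97 and 2.92 in scramble. Every OTX2 KD array was lower, with a log2 fold change of -0.52 ± 0.086 (SE, adjusted p = 0.00336). EYA4 lay below the median of all 6 arrays, and its signal over background was not measured.

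EYA3 (cluster 16684110, chromosome 1), the paralogue expressed in most tissues, was 7.59, 7.61 and 7.25 in OTX2 KD and 7.66, 7.57 and 7.72 in scramble. The groups overlapped, and OTX2 KD replicate 3 was the lowest array. The log2 fold change was -0.17 ± 0.117 (SE), with a 95% confidence interval from -0.44 to 0.11 (adjusted p = 0.349). A fall of up to 0.44 or a rise of up to 0.11 was thus within its error. Without OTX2 KD replicate 3 the log2 fold change was -0.05. The 95% interval of EYA1 lay wholly above those of EYA2, EYA3 and EYA4. The differences between the paralogues were not tested.

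SIX4 (cluster 16793623, chromosome 14) is a homeodomain factor that acts in mouse muscle progenitors. It was 4.88, 4.95 and 4.94 in OTX2 KD, against 6.48, 6.50 and 6.38 in scramble. Replicates of each group were close together, and the groups were well separated. The fall was 2.89-fold, a log2 fold change of -1.53 ± 0.079 (SE) with a 95% interval of -1.71 to -1.34 (adjusted p = 1.75e-05). Of all clusters 2.51% had a larger change in either direction, and SIX4 ranked 414 among the falls of named genes.

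SIX2 (cluster 16897159, chromosome 2), which holds nephron progenitors of the mouse kidney in an undifferentiated state, was 7.09, 7.06 and 7.28 in OTX2 KD and 7.80, 7.47 and 7.58 in scramble. The OTX2 KD arrays were all lower, by a margin smaller than the range within scramble. Its log2 fold change was -0.48 ± 0.114 (SE, adjusted p = 0.0187). The call was lost without OTX2 KD replicate 1 (adjusted p = 0.0608) or OTX2 KD replicate 2 (adjusted p = 0.063). SIX3 (cluster 16879659, chromosome 2), a factor of the anterior forebrain and eye that represses Wnt1 in the mouse, was 4.87, 5.05 and 4.88 in OTX2 KD and 5.53, 5.39 and 5.11 in scramble. The gap between the nearest arrays of the groups, OTX2 KD replicate 2 and scramble replicate 3, was small. Its log2 fold change was -0.41 ± 0.125 (SE), and its adjusted p of 0.0472 was the nearest to the threshold among the 8 genes that passed. That call was kept without scramble replicate 3 (adjusted p = 0.016) and lost without each of the other arrays, where the adjusted p lay between 0.0621 and 0.128.

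DACH1 (cluster 16779701, chromosome 13), a corepressor reported to restrain CCND1 in breast cancer cells, was 8.05, 8.06 and 7.98 in OTX2 KD and 7.67, 7.67 and 7.44 in scramble. All OTX2 KD arrays were higher, and scramble replicate 3 was the lowest array. This was a log2 fold change of 0.44 ± 0.094 (SE), a 1.36-fold rise (adjusted p = 0.0115). DACH2 (cluster 17105183, chromosome X), which represses the myogenin gene in innervated mouse muscle, was 3.28, 3.44 and 3.56 in OTX2 KD and 3.02, 3.05 and 3.15 in scramble. The groups did not overlap, but all 6 values lay below their array's median. DACH2 had a log2 fold change of 0.36 ± 0.099 (SE, adjusted p = 0.0334). That call ended after median centring (log2 fold change 0.27, adjusted p = 0.0866) and without each array other than OTX2 KD replicate 1 (adjusted p between 0.0548 and 0.0971).

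**Figure D2:**
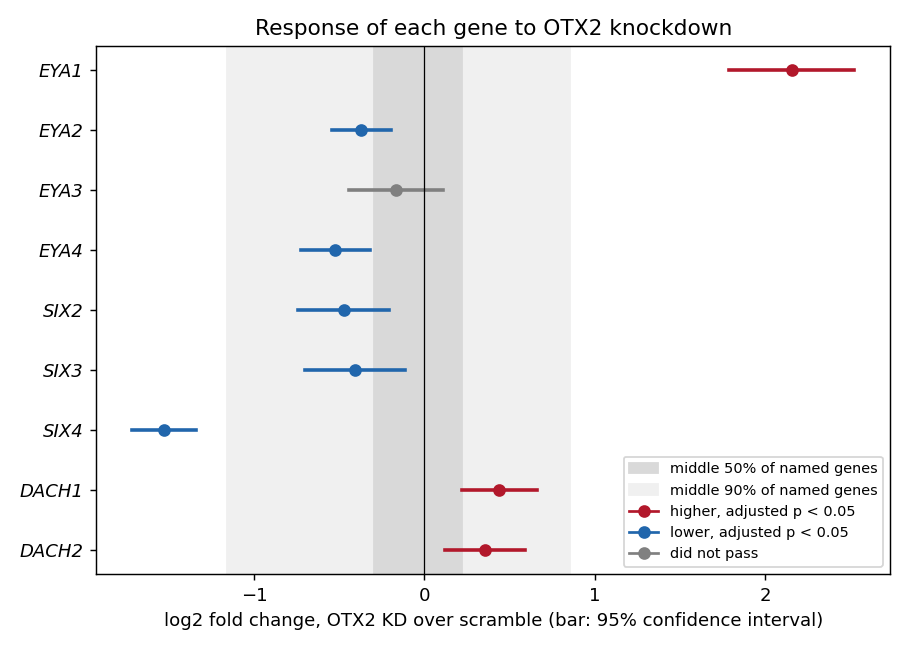
Log2 fold change of OTX2 KD over scramble (x axis) with its 95% confidence interval for each gene (rows), in red where higher, blue where lower and grey where it did not pass adjusted p 0.05. Grey bands hold the middle 50% (-0.30 to 0.22) and the middle 90% (-1.16 to 0.85) of named genes, and EYA1 at 2.15 and SIX4 at -1.53 lie outside the wider band.

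Of the family genes outside the 9, SIX5 and SIX6 were examined. SIX5, whose gene lies beside that of the kinase DMPK at the myotonic dystrophy locus, was 4.19, 3.94 and 4.602 in OTX2 KD and 5.24, 4.99 and 4.93 in scramble at its brighter cluster (log2 fold change -0.81 ± 0.176, SE, adjusted p = 0.0123). Its other cluster gave -0.31 ± 0.131 (SE, adjusted p = 0.125), so the clusters differed on the call. SIX6, the eye factor most like SIX3, was 4.06, 4.16 and 3.93 in OTX2 KD and 4.03, 4.25 and 4.14 in scramble. Its groups overlapped (log2 fold change -0.09 ± 0.10, SE, adjusted p = 0.564).

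The neighbours of the genes on the chromosome were examined for shared changes, a comparison added after the values of the 9 genes were seen. SIX2 and SIX3, adjacent on chromosome 2, both fell, and SRBD1, on the other side of SIX2, fell too (5.80 in OTX2 KD and 6.62 in scramble, log2 fold change -0.82 ± 0.097, SE). SIX4 and SIX6 lie near each other on chromosome 14, and SIX4 fell whereas SIX6 did not pass. TRMT5, the neighbour of SIX4 on the other side, fell as well (5.67 in OTX2 KD and 6.10 in scramble, log2 fold change -0.44 ± 0.10, SE). EYA1 had falling genes on both sides, TRAM1 (6.65 in OTX2 KD and 7.67 in scramble, log2 fold change -1.02 ± 0.083, SE) and MSC (3.61 in OTX2 KD and 4.33 in scramble, log2 fold change -0.72 ± 0.094, SE), while it rose itself. TRAM1 encodes a protein of translocation into the endoplasmic reticulum, and MSC a repressor related to muscle basic helix-loop-helix factors. DACH2 rose together with the zinc finger gene ZNF711 (0.86) and KLHL4 (0.61), its nearest named neighbours. DACH1 rose beside MZT1, a subunit of the microtubule nucleation complex, which fell (-0.80). Over all 16 nearest protein-coding genes outside the 9 with a named cluster, 3 were higher, 6 were lower and 7 did not pass. Of all named genes, 16.6% were higher and 23.2% were lower. A link between the changes of neighbours was not tested.

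PAX factors are the classical partners of the network. Of 8 measured PAX genes among 9 listed symbols, 1 was higher, 1 was lower and 6 did not pass, with a median log2 fold change of 0.03. By comparison, 16.6% of all named genes were higher and 23.2% were lower. PAX6, the factor placed above the EYA genes in eye development, was 4.84 ± 0.205 in OTX2 KD, against 3.24 ± 0.211 in scramble (SD, n = 3). Its log2 fold change was 1.60 ± 0.146 (SE, adjusted p = 0.000206), and all scramble arrays lay below their median. PAX5, a factor of the midbrain-hindbrain boundary and of B cells, was 4.46 ± 0.055 in OTX2 KD, against 5.19 ± 0.070 in scramble (SD, n = 3), a log2 fold change of -0.74 ± 0.082 (SE). PAX2, PAX3 and PAX8, partners of EYA1 in kidney, muscle and ear, had log2 fold changes of -0.01, 0.16 and 0.12 and did not pass. PAX3 lay below the median of all 6 arrays and PAX2 below that of 5, so their expression here was not established.

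Some genes for the proteins through which DACH and SIX-family factors repress or activate transcription passed, as did 39.8% of all named genes. Of 11 measured corepressor and coactivator genes among 19 listed symbols (older symbols of the same gene included, here and in the lists below), 4 were higher, 1 was lower and 6 did not pass, with a median log2 fold change of 0.10. The acetyltransferases EP300 and CREBBP rose, with log2 fold changes of 0.60 ± 0.083 and 0.31 ± 0.081 (SE), and so did TLE5, a short member of the Groucho family (0.48 ± 0.099, SE). SIN3B, named because it completes the count, rose by 0.31, whereas its relative SIN3A, a scaffold of histone deacetylase complexes, had a log2 fold change of -0.30 ± 0.077 (SE). HDAC3 and SKI, known partners of DACH1 and its relatives, had log2 fold changes of -0.21 and 0.16 and did not pass, and neither did HDAC2 (0.10) or SMAD4 (0.00). When any single array was left out, 2 or 3 of these genes were called in place of 5.

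**Figure D3:**
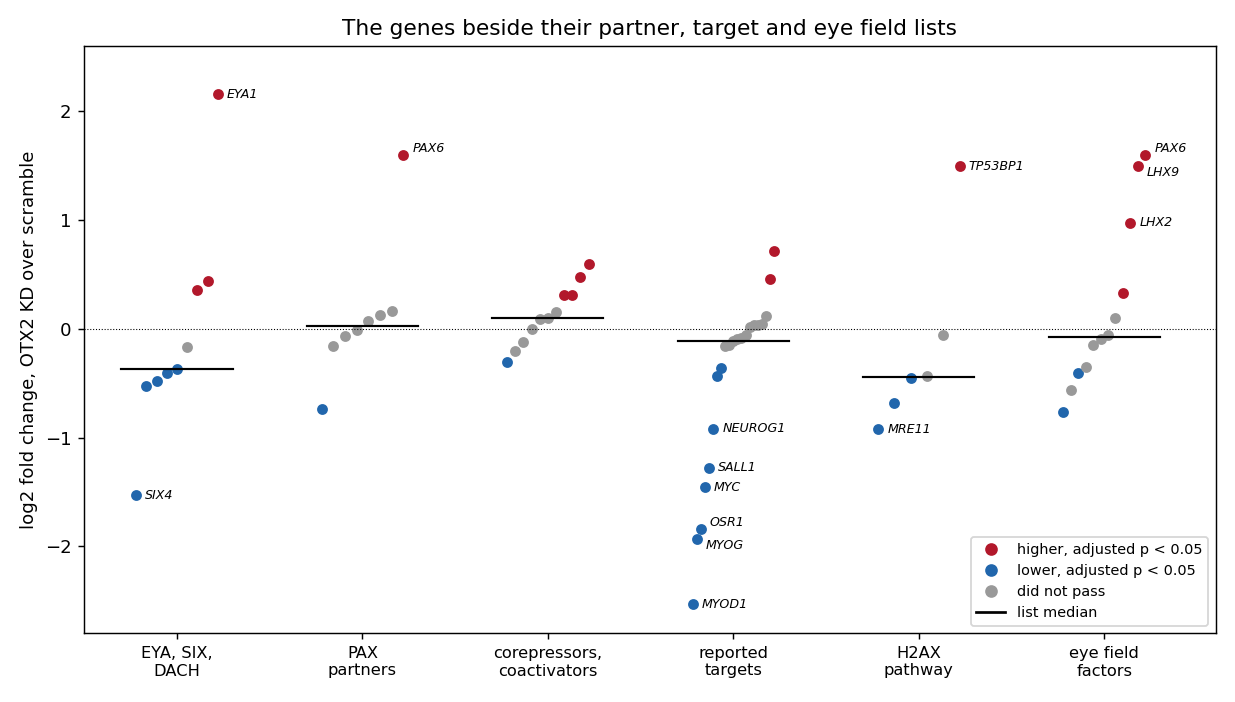
Log2 fold change of OTX2 KD over scramble (y axis) for every measured gene of the network and of the partner, target, H2AX pathway and eye field lists (x axis), each point a gene, ordered within its list, with the list median as a black line. Named points passed adjusted p 0.05 and had the larger changes. The target list reaches down to MYOD1 at -2.53, and the median of the network was -0.37.

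Targets reported for EYA, DACH or SIX-family factors in other tissues included large falls of muscle genes. Of 21 measured among 35 listed symbols, 2 were higher, 8 were lower and 11 did not pass, with a median log2 fold change of -0.12. Over all named genes 16.6% were higher and 23.2% were lower. NEUROD1, another listed target, had no cluster with 1 symbol and was not analysed here. The study reports it as significantly higher after OTX2 knockdown. MYOD1 and MYOG, muscle determination genes and targets of SIX4 in mouse muscle, had the largest falls. MYOD1 was 5.11 ± 0.268 in OTX2 KD and 7.64 ± 0.138 in scramble, with the SD over 3 arrays (log2 fold change -2.53 ± 0.149, SE), and MYOG was 7.36 ± 0.188 in OTX2 KD and 9.29 ± 0.138 in scramble (log2 fold change -1.93 ± 0.124, SE). Both are also among the 3 muscle markers given above, with DES, which fell at its brighter cluster (-0.43) and did not pass at its other cluster (-0.36). OSR1, which marks kidney progenitors together with SIX2, was 3.78 ± 0.073 in OTX2 KD, against 5.62 ± 0.094 in scramble (SD, n = 3), a log2 fold change of -1.84 ± 0.089 (SE). The other 4 falls, MYC, SALL1, NEUROG1 and EZR, had log2 fold changes of -1.46, -1.28, -0.92 and -0.36. The muscle determination genes MYF5 and MYF6 lay below the median of all 6 arrays, with overlapping groups, and did not pass (-0.15 and -0.08). IGFBP5, an insulin-like growth factor binding protein, and JUN, an AP-1 factor, were the measured genes that rose, with log2 fold changes of 0.71 ± 0.076 and 0.46 ± 0.078 (SE). CCND1, a reported target of DACH1, had a log2 fold change of -0.09 ± 0.085 (SE) and did not pass (adjusted p = 0.489).

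EYA proteins remove a phosphate from a tyrosine of the histone H2AX during DNA repair. Of 6 measured among 16 listed symbols, 1 was higher, 3 were lower and 2 did not pass, with a median log2 fold change of -0.44. Named genes as a whole were higher in 16.6% and lower in 23.2% of cases. The gene of H2AX itself was not among those measured, so these genes cover only a part of the pathway. TP53BP1, a repair factor recruited to broken DNA, was 7.96 ± 0.022 in OTX2 KD, against 6.47 ± 0.022 in scramble (SD, n = 3), a log2 fold change of 1.49 ± 0.074 (SE). The 3 genes of the MRE11, RAD50 and NBN complex, which binds DNA ends, had log2 fold changes of -0.92, -0.45 and -0.68, and all fell. ATR, a checkpoint kinase, just missed the threshold (-0.43 ± 0.134, SE, adjusted p = 0.0508), and MDC1, which binds phosphorylated H2AX, had a log2 fold change of -0.06 at its brightest cluster.

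Other factors of the early eye field were set beside SIX3 and PAX6, which belong to this list as well. Of 12 measured among 14 listed symbols, 4 were higher, 2 were lower and 6 did not pass, with a median log2 fold change of -0.08. Among all named genes 16.6% were higher and 23.2% were lower. After PAX6, the LIM homeodomain factors LHX9 and LHX2 rose most. LHX9 was 4.69 ± 0.141 in OTX2 KD, against 3.19 ± 0.111 in scramble (SD, n = 3, log2 fold change 1.496 ± 0.106, SE). All scramble arrays lay below their median for LHX9, as for PAX6. LHX2 had a log2 fold change of 0.97 ± 0.093 (SE) at its brighter cluster and 0.15 at a dim cluster that did not pass. TBX3, named because it completes the count, rose by 0.33 ± 0.098 (SE). MITF, a factor of pigment cells, and SIX3 were the genes that fell, at -0.76 ± 0.093 and -0.41 ± 0.125 (SE), and MITF lay below the median of all 6 arrays.

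Genes with the pattern most like EYA1 and SIX4 were found by the root mean square difference over the 6 arrays, after each gene was centred on its scramble mean. TMEFF2, PCDHB13 and PLCL1 lay nearest to EYA1, at 0.087, 0.097 and 0.128 log2 units, and ARHGAP28, DNA2 and MCHR1 nearest to SIX4, at 0.045, 0.052 and 0.054. The arrays fall into the 2 treatment groups, so this likeness rests mainly on the fold change and says nothing of a shared function.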

How the data were processed

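The authors profiled 6 D283 tumorsphere samples (3 OTX2 KD, 3 scramble), which the study calls biological replicates, on Affymetrix Human Gene arrays. The deposited log2 values are RMA values that the authors generated in Affymetrix Expression Console, its version not given in the sources used here. RMA corrects background, quantile-normalizes the arrays and summarizes probes to 1 value per cluster, which compresses differences of dim clusters and places values of different probes on no common scale, so levels were not compared between genes. Arrays give no read depth, and their number limits the precision.

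Groups and replicate numbers were read from the sample titles. All 53617 clusters were fitted by lmFit and eBayes of limma 3.58.1 (R 4.3.3), giving a residual df of 4 and a prior df of 3.17. The two-sided p-values were adjusted by Benjamini-Hochberg across the whole array, and 0.05 was the threshold. An SE belongs to a fold change and an SD to a group of arrays. Gene names came from the platform annotation (16098 clusters with 1 symbol, 37519 without a single symbol), and a gene with several clusters was represented by the brightest. A gene was counted as measured only if it had a cluster with 1 symbol. Figures used matplotlib 3.10.9 in Python 3.11.15, and start-site sequences came from RefSeq (GRCh38.p14). The code was tested on simulated data.

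The members and gene lists were chosen with earlier results of these data known. Named were all 9 genes, OTX2, up to 3 rises and 3 falls of each list past the threshold, list genes needed to say what did not pass, and the 3 genes most like EYA1 and like SIX4. The neighbours, SIX5, SIX6, SIN3B, TBX3, MYC, SALL1, NEUROG1, DES, EZR and the cell type and tumour markers were singled out with their values known. The alternatives tried were a block for the replicate number, median centring, repeated quantile normalization, trend and robust variance, brighter or named clusters only, a 2-fold limit, a test against 1.5-fold (treat), a gene's mean over clusters and leaving out each array.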

Additional observations from a re-analysis of the deposited data

How the results depend on the processing

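EYA1 and SIX4 passed under all 15 alternatives each, with log2 fold changes from 2.02 to 2.33 and from -1.62 to -1.51, and EYA3 passed under none of its 15. With the 2-fold limit, 1 of the 9 genes was higher and 1 lower, as in the test against 1.5-fold. Those limits gave 1672 and 1507 clusters higher and 1941 and 1894 lower over the whole array, and the 2-fold limit also ended the call of OTX2, whose log2 fold change stayed at -0.97. Fewer clusters, those with a single symbol, gave 3240 higher and 4127 lower. Called genes under the 2-fold limit and the 1.5-fold test were 0 and 0 for corepressors and coactivators, 2 and 3 for eye field factors, 1 and 1 for the H2AX pathway, 1 and 1 for PAX factors and 5 and 5 for reported targets. Leaving out single arrays gave 2 to 3 of the 9 genes higher, 3 to 5 lower (3 without OTX2 KD replicate 1 or replicate 2) and 2 to 3 corepressor and coactivator genes. Same-numbered arrays did not deviate together (r = -0.056, -0.023 and -0.00072), so the numbers were not taken as pairs. With the replicate block 3 of the 9 genes were higher and 4 lower, the SIX3 call being lost (adjusted p = 0.0628), 2 corepressor and coactivator genes were called, and 6774 clusters were higher and 6206 lower. DACH2 missed the threshold under repeated quantile normalization (log2 fold change 0.27, adjusted p = 0.0856) and with trend and robust variance (adjusted p = 0.0516). The cause of these shifts was not tested. EYA4 and DACH2 were dropped where only brighter clusters were tested. No scanner files were used here, so other background corrections were not tried, and signal over background, which limits EYA4 and DACH2, was not measured.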
